A study of Mus musculus with 9 samples.

Results

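The 10 genes Il1a, Il1b, Il18, Il33, Il1rn, Il18bp, Il1r1, Il1rap, Il18rap and Il1r2 encode ligands, inhibitors, receptors and a decoy receptor of the interleukin-1 (IL-1) family. They were taken as a named list, and every non-control array probe that carried one of these gene names was kept. This gave 12 probes of the 55681 on the array, for 10 of its 34797 gene names. Il1rap had 3 probes and the 9 other genes had 1 each. These genes and the gene lists below were chosen with earlier results of these data known. Their counts beside the share of all probes or genes are therefore a description and not a test.

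IL-1α and IL-1β, the products of Il1a and Il1b, bind the receptor encoded by Il1r1, which signals together with the accessory chain encoded by Il1rap. The Il1rn product occupies this receptor without a signal, the Il1r2 product binds ligand without passing a signal on, and IL-18 and IL-33 are related ligands with receptors of their own. In skin, keratinocytes are a known source of IL-1α, IL-18 and IL-33, and neutrophils are known to make IL-1β and to carry the decoy receptor.

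The arrays measured RNA from Gr-1bright neutrophils of FVB/N mice with chemically induced skin lesions. Neutrophils were sorted from papillomas (papilloma, 3 arrays), from the skin beside papillomas (papilloma skin, 2 arrays), from carcinomas (tumor, 2 arrays) and from the skin beside tumors (tumor skin, 2 arrays). All 4 groups came from mice given the mutagen DMBA when 6 and 13 weeks old and the tumor promoter PMA 2 times a week, starting in week 1 and ending in week 18 to 20. Cells of several mice were pooled for each array, and the purity after sorting exceeded 98%. No group came from untreated skin. Lesions were dissociated with collagenase, dispase and DNase and the skin with collagenase alone, so the tissue and its dissociation cannot be told apart.

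Values are log2 intensities of 1-color arrays with 60-base probes, normalized between arrays by the authors, so that a difference of 1 is a 2-fold change. With 2 or 3 arrays a group, precision was limited throughout. All p-values measure the spread between arrays of pooled mice.

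Some columns of the deposited table did not rank closest to the scanner file of the same label. Spearman's rho across probes, which are not independent replicates, was 0.588 between the column papilloma skin 1 and its own scanner file and 0.924 with the file of tumor 2. The column tumor 1 was also closest to the file of tumor 2, with rho = 0.947 against 0.827 for its own. The columns papilloma 2 and papilloma 3 were each closest to the file of the other (rho = 0.981 and 0.959), within the same group. The 5 other columns were closest to their own file. Fold changes of members in each lesion against its skin, and counts from gene lists, are therefore given with all 9 columns and without papilloma skin 1 and tumor 1. Fold changes between the lesions or between the skins are mostly from all 9, and the search for like patterns used all 9 alone.

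The scanner files also differed in signal range. The slope of the log signal of spiked control RNAs over their known amounts was 0.678 for papilloma skin 1, 0.876 for tumor skin 1 and 0.894 for tumor 1, and lay between 1.041 and 1.056 on the 6 other arrays. At least 90.7% of probes were well above background on each of the first 3 arrays, against 44.2 to 64.2% on the others. The arrays lay on 3 slides. Slide 1 held papilloma skin 1, tumor skin 1, papilloma 1 and tumor 1, slide 2 papilloma 2, tumor 2 and papilloma skin 2, and slide 3 papilloma 3 and tumor skin 2.

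The comparison of papilloma with papilloma skin asks which IL-1 family transcripts differ between neutrophils inside a benign lesion and those beside it. Il1a and Il1rn rose, by 9.22-fold and 3.38-fold, and Il1r1 rose by an amount that is not exact, since its skin values lay near background. These were the 3 probes of 12 called higher, against 2.18% of all 55681 probes (1212), and 0 of 12 were called lower, against 1% (3.18% in either direction). To be called, a probe needed an adjusted p no higher than 0.05 in limma, a change of 2-fold or more and a log2 value that averaged 6 or more. That level was reached by 11 of the 12 probes but by only 28871 of all 55681, so the shares of all probes include many that could not be called. When only probes at that level were tested, the same 3 were called, against 6.5% of the probes tested. In limma, 6 of the 12 probes and 11540 of all probes had an unadjusted p under 0.05. The median log2 fold change was 0.49 over the 12 probes and -0.01 over all probes. All papilloma arrays lay above both papilloma skin arrays for 6 of the 12 probes and below them for 0, against 19.8% and 17.8% of all probes (37.6% together). The same 3 probes were called without papilloma skin 1 and tumor 1, against 1.83% of all probes in either direction. From the scanner files, quantile normalized with ComBat for slide, 5 of the 12 were called, against 7.19% of all probes.

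The comparison of tumor with tumor skin asks the same of established carcinomas. Il1a, Il1rn and Il18 rose, by 10.1-fold, 2.88-fold and 2.6-fold, and Il1r1 rose by an amount that is again not exact. These were 4 probes of 12, against 2.71% of all probes (1507), and 0 of 12 were called lower, against 1.51% (4.21% in either direction). When only the 28871 probes at the level of 6 were tested, the same 4 were called, against 8.81% of the probes tested. In limma, 7 of the 12 probes and 14997 of all probes had an unadjusted p under 0.05. The median log2 fold change was 0.74 over the 12 probes and -0.02 over all probes. Both tumor arrays lay above both tumor skin arrays for 7 of the 12 probes and below them for 0, against 25.7% and 26.4% of all probes (52.1% together). The same 4 probes were called without papilloma skin 1 and tumor 1, against 3.16% of all probes in either direction. Scanner-file values with ComBat gave 1 call among the 12, against 0.221% of all probes.

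**Figure D1:**
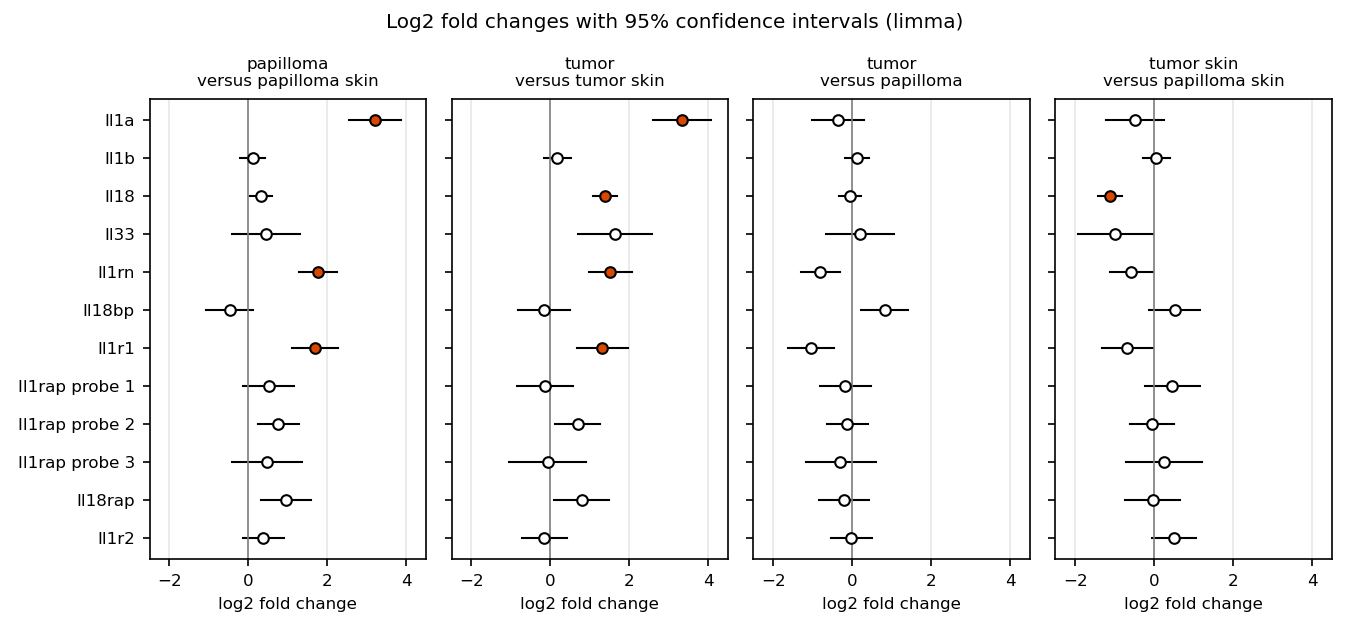
Log2 fold change of each of the 12 probes in 4 comparisons, with the 95% confidence interval from limma (9 arrays), where filled circles passed the call rule. The Il1a interval ran from 2.54 to 3.87 for papilloma against its skin and from 2.61 to 4.06 for tumor against its skin, and the Il1b intervals, which included 0, come from the upper end of the normalized scale, where a rise has little room.

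Tumor was compared with papilloma to see which transcripts differ between the lesion stages. In limma, 0 of the 12 probes were called in either direction, against 0.113% of all probes higher and 0.334% lower (0.447% together), while 3 of the 12 and 8032 of all probes had an unadjusted p under 0.05. Tumor skin was compared with papilloma skin for the surroundings of the same stages, and Il18 was the 1 probe of 12 called, 2.18-fold lower in tumor skin, against 0.122% of all probes called lower, 0.138% higher and 0.26% together. Arrays did not overlap between tumor and papilloma for 4 of the 12 probes (1 higher and 3 lower in tumor), against 36.2% of all probes (18% and 18.2%). Between the skins the 12 probes held 5 without overlap (1 higher and 4 lower in tumor skin), against 48.9% (24.2% and 24.7%). The papilloma effect (papilloma minus papilloma skin) was also set against the tumor effect (tumor minus tumor skin). In limma, 0 of the 12 probes passed this test, against 0.0269% of all probes (15), while 1 of the 12 and 8174 of all probes had an unadjusted p under 0.05. With the columns papilloma skin 1 and tumor 1 left out, limma called 0 of all 55681 probes in each of these 3 comparisons, and from the scanner files with ComBat it called 0 as well.

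Il1a encodes IL-1α, a ligand that is active without cleavage. The Il1a value was 8.47 and 9.07 on papilloma skin 1 and 2, 8.58 and 7.97 on tumor skin 1 and 2, 11.67, 12.44 and 11.82 on papilloma 1, 2 and 3, and 11.62 and 11.60 on tumor 1 and 2. All 5 lesion arrays were high and all 4 skin arrays were low, with no overlap. The group means ran from papilloma (11.97 ± 0.41, SD, n = 3) and tumor (11.61 ± 0.02, n = 2) to papilloma skin (8.77 ± 0.43, n = 2) and tumor skin (8.28 ± 0.43, n = 2). The neighbors papilloma and tumor did not pass the test (log2 fold change -0.36, adjusted p = 0.593), and papilloma skin and tumor skin overlapped. The probe lies at chr2:129125994-129126053 on the minus strand of mm9, the build named in the scanner files, which give no exon or UTR annotation.

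The Il1a log2 fold change between papilloma and papilloma skin was 3.21 (SE 0.29, adjusted p = 0.000856). Between tumor and tumor skin it was 3.34 (SE 0.318, adjusted p = 0.00163), and the tumor effect exceeded the papilloma effect by 0.13 (adjusted p = 0.923). Within slides, papilloma minus papilloma skin was 3.2 on slide 1 and 3.37 on slide 2, and tumor minus tumor skin was 3.04 on slide 1. Each of these uses the column papilloma skin 1, papilloma 2 or tumor 1, which ranked closest to another array's file. The scanner files, whose labels define the slides, gave 2.2, 2.61 and 3.11. The log2 fold changes without papilloma skin 1 and tumor 1 were 2.9 (adjusted p = 0.0318) and 3.32 (adjusted p = 0.0251). From the scanner files with ComBat they were 2.65 (adjusted p = 0.00853) and 3.54 (adjusted p = 0.0219). Over all scanner-file settings the adjusted p ran from 0.00379 to 0.358 in the papilloma comparison and from 0.00616 to 1 in the tumor comparison, and over the other value-table settings from 0.000664 to 0.0331 across both. Both Il1a calls were lost from the scanner files with slide as a term, at 2.67 in papilloma and 3.54 in tumor. In that setting 0 of all 55155 probes were called, so the loss says nothing of Il1a itself. Both were also lost with only the arrays of full slope (2.63 in papilloma), which left a single array in papilloma skin, tumor skin and tumor.

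The promoter of Il1a is printed because Il1a rose in both lesions, beside that of Il1b, which was called in neither. Sequences are from RefSeq, build GRCm38.p6, span 300 bases around the start site, 5′ to 3′ on the gene's strand, and matched all 10 genes with 14 promoters. Il1a lies at chr2:129309923-129310222 and Il1b at chr2:129371090-129371389, both on the minus strand. Capitals mark matches on either strand. NF-κB was read as GGG and CC with any 5 bases between. AP-1 was read as TGANTCA and C/EBP as TTGCNNAA. PU.1 was read as GAGGAA. The core promoter box was read as TATAAA.
Il1a promoter: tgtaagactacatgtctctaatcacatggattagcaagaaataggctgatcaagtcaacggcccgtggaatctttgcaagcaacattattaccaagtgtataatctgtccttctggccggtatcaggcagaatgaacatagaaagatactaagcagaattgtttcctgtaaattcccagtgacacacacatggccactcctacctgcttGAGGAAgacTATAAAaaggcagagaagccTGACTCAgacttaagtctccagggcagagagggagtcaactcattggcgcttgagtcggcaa
Il1b promoter: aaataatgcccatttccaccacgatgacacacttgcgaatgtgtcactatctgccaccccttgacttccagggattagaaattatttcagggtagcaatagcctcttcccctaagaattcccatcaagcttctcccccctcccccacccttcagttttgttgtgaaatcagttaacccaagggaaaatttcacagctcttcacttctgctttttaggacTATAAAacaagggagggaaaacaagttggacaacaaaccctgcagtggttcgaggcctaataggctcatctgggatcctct
The Il1a window held matches to PU.1, the core promoter box and AP-1, and the Il1b window a match to the core promoter box alone. Of 32851 promoters of 300 bases, 50.8% held the NF-κB letters, 7.81% the AP-1, 10.8% the C/EBP, 13.6% the core promoter box and 28.3% the PU.1 letters. Among the 14 promoters these were in 5, 2, 3, 6 and 3. A match is a description of letters, and the binding of a factor was not measured.

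**Figure D2:**
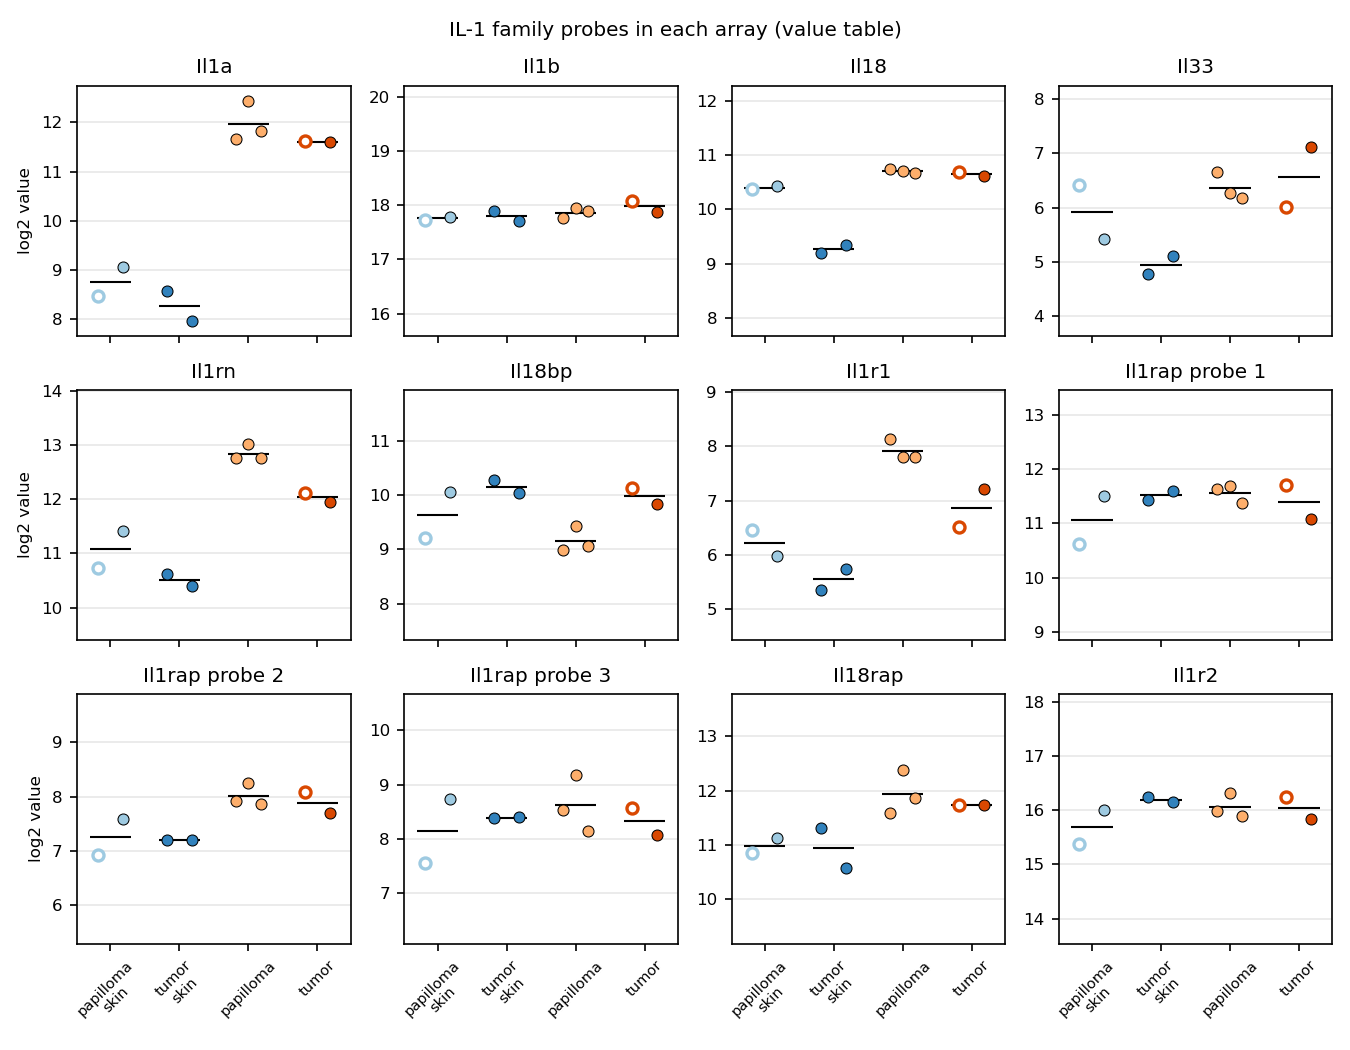
Log2 value of each of the 12 probes in each array, by group, where bars are group means and open circles are papilloma skin 1 and tumor 1, the columns closest to another array's scanner file. The 5 lesion arrays lie above the 4 skin arrays for Il1a, Il1rn, Il1r1, Il18, Il18rap and Il1rap probe 2, and each axis spans its own range.

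Il1b encodes IL-1β, a ligand that is released after cleavage. The Il1b value was 17.72 and 17.79 on papilloma skin 1 and 2, 17.90 and 17.71 on tumor skin 1 and 2, 17.76, 17.94 and 17.89 on papilloma 1, 2 and 3, and 18.08 and 17.88 on tumor 1 and 2. The groups overlapped in all 4 comparisons, and the SD over the 9 arrays was 0.12. The log2 fold change was 0.11 (95% confidence interval -0.2 to 0.42) in papilloma versus papilloma skin and 0.18 (-0.16 to 0.52) in tumor versus tumor skin. Leaving out papilloma skin 1 and tumor 1 gave 0.07 (adjusted p = 0.88) and 0.08 (adjusted p = 0.815). Scanner-file settings gave 0.08 to 1.21 in the papilloma comparison (lowest adjusted p 0.0848). Only 9 to 31 of the 55681 probes were brighter on each array, at the upper end of the normalized scale, where a rise has little room, so a lack of change cannot be read from these intervals. The probe had 10 spots per array, of which 8 were usable on papilloma skin 1, with an SD over spots between 0.03 and 0.17, and 0 spots of the array set were saturated. The probe lies at chr2:129190347-129190406 on the minus strand of mm9. In scanner-file values scaled to the 75th percentile the Il1b difference turned sign in 3 comparisons.

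Il18 encodes IL-18, a ligand that, like IL-1β, is released after cleavage. Its probe, at chr9:50389761-50389820 on the plus strand of mm9, is printed because the Il18 results rest on this 1 probe, which holds the stop codon (capitals) near its end.
Il18 probe: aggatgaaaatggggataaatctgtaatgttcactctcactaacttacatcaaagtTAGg
The Il18 value was 10.37 and 10.43 on papilloma skin 1 and 2, 9.19 and 9.35 on tumor skin 1 and 2, 10.75, 10.71 and 10.67 on papilloma 1, 2 and 3, and 10.69 and 10.61 on tumor 1 and 2. The low arrays were the tumor skin pair, which lay below all 7 others. The means were 10.71 in papilloma (SD 0.04, n = 3), 10.65 in tumor (SD 0.06, n = 2), 10.4 in papilloma skin (SD 0.04, n = 2) and 9.27 in tumor skin (SD 0.11, n = 2), and the papilloma and tumor ranges overlapped.

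Il18 rose in tumor over tumor skin by 1.38 in log2 (SE 0.134, adjusted p = 0.00173), and fell by 1.13 in tumor skin against papilloma skin (SE 0.134, adjusted p = 0.0338). Between papilloma and papilloma skin the log2 fold change was 0.31 (SE 0.122, adjusted p = 0.198), 0.28 (adjusted p = 0.417) without papilloma skin 1 and tumor 1, and a call at 1.13 (adjusted p = 0.0367) from scanner files scaled to the 75th percentile. The tumor effect exceeded the papilloma effect by 1.07 (SE 0.181), which did not pass over all probes (adjusted p = 0.108). Within slide 1, tumor minus tumor skin was 1.5 and tumor skin minus papilloma skin was -1.18, against 1 and -0.47 in the scanner files. Both use the columns tumor 1 or papilloma skin 1, which ranked closest to another file.

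The tumor skin call for Il18 was lost when any 1 papilloma array was left out, although these arrays do not enter its fold change. In these fits 0.0126 to 0.0162% of all probes were called between the skins, against 0.26% with all 9 arrays. The loss thus says little of Il18 itself. Leaving out any 1 of the 9 arrays gave log2 fold changes between -1.21 and -1.05. Leaving out papilloma skin 1 and tumor 1 together gave 1.34 (adjusted p = 0.0255) for tumor versus tumor skin and -1.16 (adjusted p = 0.273) for tumor skin versus papilloma skin. From the scanner files with ComBat they were 0.96 (adjusted p = 0.184) and -0.65 (adjusted p = 0.223). The tumor call was lost in all scanner-file settings (0.77 to 1.1, adjusted p between 0.0632 and 1) and with slide as a term on the value table (1.4, adjusted p = 0.0578). The skin call was lost in all scanner-file settings too (-0.99 to -0.3, adjusted p between 0.173 and 0.959). Between the skins those settings called at most 1 of all probes. On the value table the skin call was lost with slide (adjusted p = 0.292) or replicate number (0.281) as a term, where 0 of all probes were called. It was also lost there when only probes at the level of 6 were tested (0.0507). Over all value-table settings the skin log2 fold change ran from -1.16 to -1.07.

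Il33 encodes IL-33, a nuclear ligand released from damaged cells. The Il33 value was 6.41 and 5.43 on papilloma skin 1 and 2, 4.77 and 5.10 on tumor skin 1 and 2, 6.65, 6.26 and 6.17 on papilloma 1, 2 and 3, and 6.02 and 7.11 on tumor 1 and 2. Both tumor arrays lay above both tumor skin arrays, and papilloma overlapped papilloma skin. Tumor versus tumor skin gave a log2 fold change of 1.63 (adjusted p = 0.0444), and the mean value of 5.99 was under the level of 6 that a call needs. Il33 was called without that level, without papilloma skin 2 (1.63, adjusted p = 0.0353) and from the scanner files with normexp (1.35, adjusted p = 0.0289), and in no other setting. The adjusted p ran from 0.0258 to 0.218 over value-table settings (1.56 to 2.17), from 0.0353 to 0.236 over single removals (1.08 to 2.17) and from 0.0289 to 1 over scanner-file settings (1.35 to 3.68). Leaving out papilloma skin 1 and tumor 1 gave 0.0258 (2.17). Papilloma versus its skin gave 0.44 (adjusted p = 0.567), 0.93 without papilloma skin 1 and tumor 1 (adjusted p = 0.142) and 0.91 to 3.12 over scanner-file settings (adjusted p between 0.0168 and 0.402). The probe was not well above background on papilloma skin 2, tumor skin 2 and papilloma 2.

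Il1rn encodes the IL-1 receptor antagonist, in secreted and intracellular forms. Its probe, at chr2:24205094-24205153 on the plus strand of mm9, ends just past the stop codon (capitals). Of 3 Il1rn promoters, the one printed, at chr2:24336610-24336909 on the plus strand, held the AP-1 letters as Il1a did, and 2 matches to NF-κB.
Il1rn probe: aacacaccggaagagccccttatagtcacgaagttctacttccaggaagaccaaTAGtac
Il1rn promoter: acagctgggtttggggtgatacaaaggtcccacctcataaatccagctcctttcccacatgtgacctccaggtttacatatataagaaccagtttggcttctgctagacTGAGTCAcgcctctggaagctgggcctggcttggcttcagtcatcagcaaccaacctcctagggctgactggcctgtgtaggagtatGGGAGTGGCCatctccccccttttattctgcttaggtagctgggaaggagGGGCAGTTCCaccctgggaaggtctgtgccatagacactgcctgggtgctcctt
The Il1rn value was 10.74 and 11.42 on papilloma skin 1 and 2, 10.62 and 10.40 on tumor skin 1 and 2, 12.75, 13.02 and 12.75 on papilloma 1, 2 and 3, and 12.12 and 11.95 on tumor 1 and 2. The 3 papilloma arrays were highest, the tumor arrays followed, and all 4 skin arrays were lower, with no overlap between any of the 4 groups. The means were 12.84 ± 0.16 in papilloma (SD, n = 3), 12.03 ± 0.12 in tumor (n = 2), 11.08 ± 0.48 in papilloma skin (n = 2) and 10.51 ± 0.15 in tumor skin (n = 2).

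Il1rn rose in papilloma over papilloma skin by 1.76 in log2 (SE 0.213, adjusted p = 0.00318). It rose in tumor over tumor skin by 1.52 (SE 0.233, adjusted p = 0.00829). In tumor versus papilloma the log2 fold change was -0.81 (adjusted p = 0.164), and in tumor skin versus papilloma skin it was -0.58 (adjusted p = 0.197). Within slides, papilloma minus papilloma skin was 2 on slide 1 and 1.6 on slide 2, and tumor minus tumor skin was 1.5 on slide 1. As for Il1a, each of these uses papilloma skin 1, papilloma 2 or tumor 1, columns that ranked closest to another array's file. The scanner files gave 1.62, 1.31 and 1.51. With papilloma skin 1 and tumor 1 left out the values were 1.41 (adjusted p = 0.0346) and 1.44 (adjusted p = 0.032).

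The tumor call for Il1rn was lost without tumor 2 (1.61, adjusted p = 0.0532), and on the value table with slide (1.35, adjusted p = 0.0967) or replicate number (1.52, adjusted p = 0.0587) as a term. Among scanner-file settings it was lost with ComBat (1.56, adjusted p = 0.0838), 75th percentile scaling (1.27, adjusted p = 0.267), slide as a term (1.53, adjusted p = 1) and only the arrays of full slope (2.03, adjusted p = 0.224). The papilloma call held with ComBat (1.55, adjusted p = 0.0157) and was lost with slide as a term (1.56, adjusted p = 0.433) or only the arrays of full slope (1.13, adjusted p = 0.315).

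Il18bp encodes a secreted protein that holds IL-18. Its value was 9.21 and 10.06 on papilloma skin 1 and 2, 10.28 and 10.03 on tumor skin 1 and 2, 8.99, 9.43 and 9.06 on papilloma 1, 2 and 3, and 10.13 and 9.84 on tumor 1 and 2. Both tumor arrays lay above all papilloma arrays, and both lesions overlapped with their own skin. In tumor versus papilloma the log2 fold change was 0.83 (adjusted p = 0.222), and from the scanner files with ComBat it was -0.19. No Il18bp comparison was called. The value without papilloma skin 1 and tumor 1 was 0.68 between the lesions, -0.9 in papilloma versus its skin (adjusted p = 0.124) and -0.32 in tumor versus its skin (adjusted p = 0.459). With all 9 arrays, 4 scanner-file settings turned papilloma versus its skin positive (1, 0.55, 0.54 and 0.97).

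Il1r1 encodes the signaling receptor for IL-1α and IL-1β. The Il1r1 value was 6.47 and 5.98 on papilloma skin 1 and 2, 5.35 and 5.75 on tumor skin 1 and 2, 8.13, 7.81 and 7.80 on papilloma 1, 2 and 3, and 6.52 and 7.22 on tumor 1 and 2. The papilloma arrays were highest and the skin arrays lowest, with tumor 1 only just above papilloma skin 1. The means were 7.91 ± 0.19 in papilloma (SD, n = 3), 6.87 ± 0.49 in tumor (n = 2), 6.23 ± 0.35 in papilloma skin (n = 2) and 5.55 ± 0.28 in tumor skin (n = 2). The probe, at chr1:40372667-40372726 on the plus strand of mm9, was not well above background on papilloma skin 2 and tumor skin 2, so the fold changes below are not exact.

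Il1r1 rose in papilloma over papilloma skin by 1.69 in log2 (SE 0.255, adjusted p = 0.00766), and in tumor over tumor skin, with 1.32 (SE 0.279, adjusted p = 0.0256). In tumor versus papilloma it was -1.04 (adjusted p = 0.14). Within slides, papilloma minus papilloma skin was 1.66 on slide 1 and 1.83 on slide 2, and tumor minus tumor skin was 1.17 on slide 1. Here too each value uses papilloma skin 1, papilloma 2 or tumor 1, columns that ranked closest to another array's file. The scanner files gave 4.54, 2.31 and 3.03. The values without papilloma skin 1 and tumor 1 were 1.93 (adjusted p = 0.0293) and 1.67 (adjusted p = 0.0347).

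The Il1r1 calls were lost in several settings. The papilloma call was lost without papilloma skin 2 (1.44), and with slide or replicate number as a term (1.66 and 1.74, adjusted p = 0.0658 and 0.0809). The tumor call was lost without tumor skin 1 (1.12, adjusted p = 0.101), without papilloma 3 (1.32, adjusted p = 0.0501) and without tumor 2 (0.97, adjusted p = 0.154). It was also lost with slide, replicate number or a crossed replicate number as a term (adjusted p = 0.164, 0.111 and 0.0725). Value-table settings gave tumor values of 1.25 to 1.67. The tumor call was lost in all scanner-file settings too (1.01 to 2.63, adjusted p between 0.0506 and 1). From the scanner files with ComBat the values were 3.23 (adjusted p = 0.00836) and 2.51 (adjusted p = 0.0829). With slide as a term on the scanner files the papilloma call was lost (3.24, adjusted p = 0.343), where 0 of all probes were called. It was also lost with only the arrays of full slope (2.82), which left a single papilloma skin array.

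Il1rap encodes the accessory chain shared by the receptors for IL-1 and IL-33. Its 3 probes lie on chromosome 16 of mm9, plus strand, at chr16:26701498-26701557 (probe 1), chr16:26716515-26716574 (probe 2) and chr16:26725291-26725350 (probe 3), and none was called in the value table. Probe 2 read 6.93 and 7.58 on papilloma skin 1 and 2, 7.20 on both tumor skin arrays, 7.87 to 8.25 on the papilloma arrays, and 8.08 and 7.69 on tumor 1 and 2. Its lesion arrays all lay above the skin arrays, with log2 fold changes of 0.75 (adjusted p = 0.0982) in papilloma versus papilloma skin and 0.69 (adjusted p = 0.119) in tumor versus tumor skin. For probe 1 and probe 3 the groups overlapped in all 4 comparisons, and the papilloma log2 fold changes were 0.51 and 0.48. Without papilloma skin 1 and tumor 1 the papilloma values of probes 1 to 3 were 0.07, 0.43 and -0.1, and the tumor values -0.45, 0.49 and -0.31. Scanner-file values gained calls in papilloma versus its skin, for probe 2 with ComBat after quantile normalization (2.07, adjusted p = 0.0444) or 75th percentile scaling (1.35, adjusted p = 0.0342), and for probe 1 with the latter (1.79, adjusted p = 0.0369). Over all scanner-file settings the papilloma value ran from 0.24 to 2.07 for probe 2 and from 0.03 to 1.79 for probe 1. In the value table the 3 probes of this gene thus differed in whether lesion and skin arrays separated.

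Il18rap encodes the accessory chain of the IL-18 receptor. The Il18rap value was 10.85 and 11.12 on papilloma skin 1 and 2, 11.31 and 10.58 on tumor skin 1 and 2, 11.59, 12.38 and 11.87 on papilloma 1, 2 and 3, and 11.73 and 11.74 on tumor 1 and 2. All lesion arrays lay above all skin arrays. The log2 fold changes of 0.96 (adjusted p = 0.086) and 0.79 (adjusted p = 0.137) did not pass in the value table, and were 0.82 (adjusted p = 0.353) and 0.79 (adjusted p = 0.296) without papilloma skin 1 and tumor 1. In papilloma versus its skin Il18rap gained a call in 3 scanner-file settings, at 2.22 (adjusted p = 0.0354) with ComBat, 2.36 (adjusted p = 0.0149) with 75th percentile scaling and 2.01 (adjusted p = 0.038) with normexp, in a range of 0.56 to 2.36.

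Il1r2, the decoy receptor, read 15.37 and 16.00 on papilloma skin 1 and 2, 16.24 and 16.15 on tumor skin 1 and 2, 15.99, 16.31 and 15.90 on papilloma 1, 2 and 3, and 16.25 and 15.83 on tumor 1 and 2. Its lesion arrays overlapped the skin arrays, with log2 fold changes of 0.38 (95% confidence interval -0.14 to 0.89) and -0.16 (-0.72 to 0.41). Without papilloma skin 1 and tumor 1 they were 0.06 (adjusted p = 0.916) and -0.36 (adjusted p = 0.348). Scanner-file values scaled to the 75th percentile gave a call in papilloma versus its skin (1.54, adjusted p = 0.0408), above that interval, in a range of 0.05 to 1.54 over scanner-file settings.

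**Figure D3:**
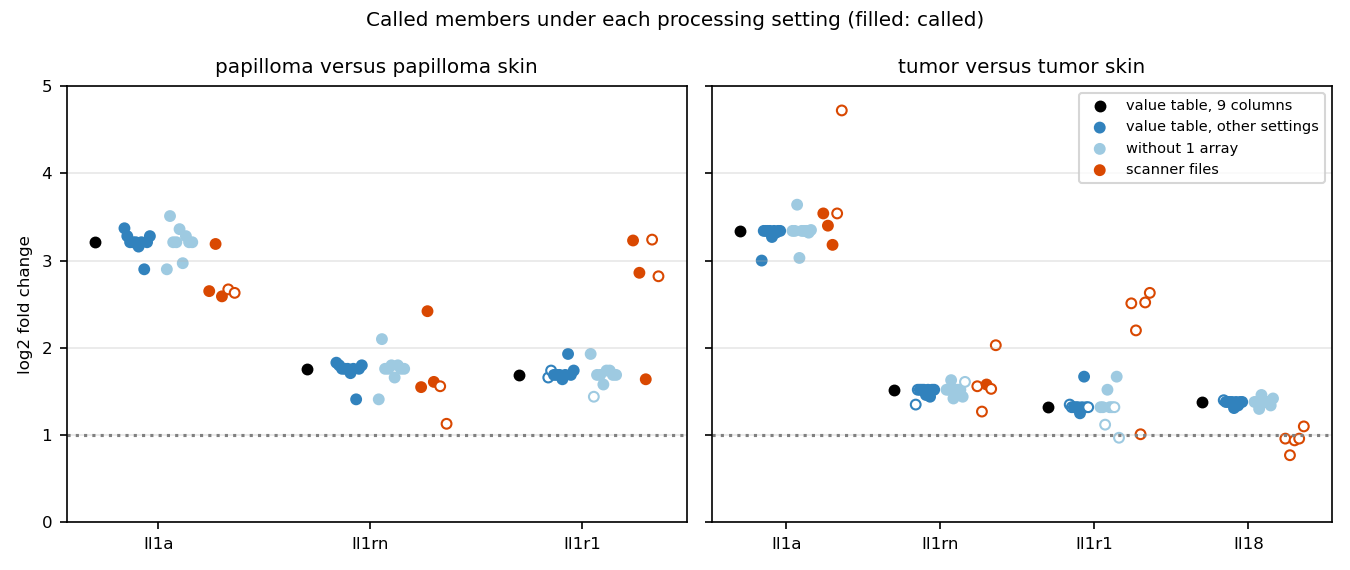
Log2 fold change of each called gene in each lesion against its own skin under every setting tried, where filled circles passed the call rule and the dotted line is the 2-fold limit. All values were above 0, and open circles were more frequent among scanner-file settings than among value-table settings.

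Transcripts that mark other cell types differed between the same groups. Shares of all genes below include genes under the level of 6, which could not be called. For each count of markers below, the share of all genes was 2.43% called higher and 1.17% lower in papilloma versus its skin, 2.75% and 1.61% in tumor versus its skin, and 0.147% and 0.46% in tumor versus papilloma. With papilloma skin 1 and tumor 1 left out it was 1.56% and 0.79% in papilloma, 2.36% and 1.33% in tumor and 0 between the lesions, so counts of 0 between the lesions in that setting say nothing of a list. As a check of the sort, all 10 neutrophil markers were well above background on the 6 arrays whose slope exceeded 1, and their log2 summed level lay between 19.63 and 20.13 on all 9 arrays, with S100a9 the most abundant. Neutrophil markers were called lower for 3 of 10 in papilloma and for 4 of 10 in tumor, each against its skin (3 and 5 without papilloma skin 1 and tumor 1). In such sorted pools, fewer cells of a type and less RNA per cell cannot be told apart.

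The log2 summed level of keratinocyte markers was 12.55 and 12.09 on papilloma skin 1 and 2, 11.99 and 13 on tumor skin 1 and 2, 14.58, 13.77 and 13.39 on papilloma 1, 2 and 3, and 13.99 and 15.57 on tumor 1 and 2. All 5 lesion arrays lay above the 4 skin arrays, with Krt14 or Krt16 the most abundant gene in lesions. Of 15 markers, 3 were called higher in papilloma and 4 in tumor, each against its skin (3 and 5 without papilloma skin 1 and tumor 1). The part of keratinocyte RNA in the Il1a, Il1rn, Il18 and Il33 values was not tested.

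Fibroblast markers summed to 14.88 and 13.82 on papilloma skin 1 and 2, 13.21 and 13.36 on tumor skin 1 and 2, 15.88, 15.41 and 15.66 on papilloma 1, 2 and 3, and 12.82 and 14.09 on tumor 1 and 2. The papilloma arrays were highest, as for Il1r1, and tumor overlapped tumor skin. Of 12 markers, 3 were called higher in papilloma versus papilloma skin and 3 higher and 1 lower in tumor versus tumor skin, while 4 were lower in tumor versus papilloma. Without papilloma skin 1 and tumor 1, 7 were higher in papilloma and 3 in tumor against their skin. Col1a2 was the most abundant on the papilloma arrays. Endothelial markers summed to 11.66 and 10.89 on papilloma skin 1 and 2, 10.64 and 11.01 on tumor skin 1 and 2, 13.3, 12.77 and 13.01 on papilloma 1, 2 and 3, and 11.17 and 12.03 on tumor 1 and 2. The papilloma arrays were again highest, Egfl7 was their most abundant gene, and 7 of 10 markers were called higher in papilloma and 3 in tumor, each against its skin (4 and 3 without papilloma skin 1 and tumor 1). The part of fibroblast and endothelial RNA in the Il1r1 and Il33 values was not tested.

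Eosinophil markers summed to 14.06 and 13.7 on papilloma skin 1 and 2, 13.02 and 13.1 on tumor skin 1 and 2, 11.35, 11.47 and 11.67 on papilloma 1, 2 and 3, and 11.99 and 11.78 on tumor 1 and 2. Of 10 markers, 6 were called lower in each lesion against its skin, with Ear2 the most abundant in skin and Siglec5 in lesions, and 1 marker was called higher in tumor versus tumor skin. The 6 and 6 held without papilloma skin 1 and tumor 1, and the higher call did not. The paper reports a rise of Siglec5 in the neutrophils of lesions, and excludes eosinophils among the sorted cells because it found no Epx expression. Of the 10 eosinophil markers, 6 were well above background on all 6 arrays whose slope exceeded 1, and the defining markers Epx and Prg3 on 0. Dendritic and Langerhans cell markers summed to 12.18 and 12.34 on the tumor arrays and to 13.57 or more on the 7 others, with Cd74 or H2-Ab1 the most abundant, and 6 of 10 were well above background on all 6 of those arrays and Xcr1 on 0. Of 10 dendritic markers, 2 were called lower in tumor versus tumor skin and 0 were called in papilloma versus papilloma skin, and 0 in either comparison when papilloma skin 1 and tumor 1 were left out.

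T and NK cell markers (10 of 12 listed were on the array) summed to 12.69 to 12.91 on the skin arrays and 11.93 to 12.37 on the lesion arrays, with Cd3d or Cd3e the most abundant, and 1 was called lower in each lesion against its skin. Monocyte and macrophage markers summed to 13.34 to 14.8 over all arrays, with Apoe the most abundant, and 1 of 10 was called lower in each lesion against its skin. Mast cell and basophil markers summed to 17.05 to 17.49, nearly all from Hdc, with 6 of 10 well above background on all 6 arrays and Ms4a2 on 0, and 1 of 10 was called higher in papilloma versus papilloma skin. Without papilloma skin 1 and tumor 1 the T and NK cell and the monocyte and macrophage counts were unchanged, and 1 mast cell marker was called lower in tumor versus its skin and 0 in papilloma. The paper reports that the sorted Gr-1bright cells expressed only Ly6G, and reads them as neutrophils rather than monocytes. The part of T and NK cells, monocytes, macrophages, mast cells and basophils in the IL-1 family values was not tested.

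Marker counts differed in scanner-file values with ComBat, where 6.28% of all genes were called higher and 1.72% lower in papilloma versus its skin and 0.315% and 0.312% in tumor versus its skin. In papilloma the markers called higher were 8 of 12 for fibroblasts (median log2 fold change 3.23, against 1.33 in the value table), 6 of 15 for keratinocytes, 5 of 10 for endothelial cells, 4 of 10 for monocytes and macrophages (median 1.02, against 0.05) and 2 of 10 for dendritic cells. Called lower there were 5 of 10 for neutrophils, 4 of 10 for eosinophils and 1 of 10 for dendritic cells. In tumor the counts were 1 higher for fibroblasts, 1 for keratinocytes and 2 for endothelial cells, and 4 lower for neutrophils, 3 for eosinophils and 1 for T and NK cells. With slide as a term on the value table, 1.49% of all genes were called higher and 0.71% lower in papilloma versus its skin. For tumor versus its skin these shares were 0.463% and 0.121%. Endothelial, keratinocyte and fibroblast markers called higher were then 2, 3 and 3 in papilloma and 0, 1 and 1 in tumor. Neutrophil, eosinophil and monocyte and macrophage markers called lower were 3, 6 and 2 in papilloma and 2, 5 and 1 in tumor.

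Between tumor skin and papilloma skin, where Il18 and Il6 fell, 1 of 10 dendritic, 1 of 10 eosinophil and 1 of 10 monocyte and macrophage markers were called lower, against 0.181% of all genes, and 0 of the other lists. Fibroblast markers had a median log2 fold change of -0.97, with limma giving 8 of 12 and 7736 of 34797 genes an unadjusted p under 0.05. With papilloma skin 1 and tumor 1 left out, 0 of all genes were called. The part of these cells in the Il18 and Il6 values was not tested.

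Genes known to be induced by IL-1 were examined as a list of 24, all on the array and 23 at the level of 6. For this and the later lists, shares of all genes again include genes under that level, which could not be called. Between papilloma skin and papilloma, 8 of 24 rose and 0 fell, against 2.43% and 1.17% of all 34797 genes, and limma gave 12 of 24 an unadjusted p under 0.05, as it did 7571 of 34797 genes. The median log2 fold change of the list was 0.41, against -0.01 over all genes. The genes called with the largest change were the neutrophil chemokine gene Cxcl3 (2.69, adjusted p = 0.000387), the granulocyte growth factor gene Csf3 (2.07, adjusted p = 0.0038) and the chemokine gene Ccl4 (1.88, adjusted p = 0.00067). Cxcl3 read 12.05 and 12.4 on papilloma skin 1 and 2 and 14.7, 15.03 and 15.03 on papilloma 1, 2 and 3, with no overlap.

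Between tumor skin and tumor, 7 of the 24 rose and 1 fell, against 2.75% and 1.61% of all genes, with a median of 0.8 against -0.01, and limma gave 15 of 24 an unadjusted p under 0.05, as it did 9390 of 34797 genes. The largest were Cxcl5 (3.55, adjusted p = 0.00084), Cxcl3 (2.51, adjusted p = 0.00119) and the chemokine gene Ccl3 (2.3, adjusted p = 0.000344). Cxcl5, another neutrophil chemokine gene, read 5.06 and 5.27 on tumor skin 1 and 2 and 8.28 and 9.15 on tumor 1 and 2, with no overlap, and its value stayed under the level of 6 on all 4 skin arrays, so its change is not exact. Lcn2, which encodes an iron-siderophore binding protein of neutrophil granules and epithelia, fell by 1.46 (adjusted p = 0.0122), a call that was lost without tumor skin 2 (-1.26, adjusted p = 0.0586) or tumor 2 (-1.39, adjusted p = 0.0895). Keratinocytes and fibroblasts can also make these chemokines, and their markers moved as given above, in a part that was not tested.

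The cytokine gene Il6 was the gene of this list called in the other comparisons. It read 8.38 and 7.97 on papilloma skin 1 and 2, 6.15 and 6.23 on tumor skin 1 and 2, 9.74, 10.17 and 9.33 on papilloma 1, 2 and 3, and 7.2 and 8.05 on tumor 1 and 2. Il6 fell by 2.12 in tumor against papilloma (adjusted p = 0.0237) and by 1.99 in tumor skin against papilloma skin (adjusted p = 0.0443), against 0.46% and 0.181% of all genes called lower and 0.147% and 0.195% higher. Its tumor skin values lay near the median of all probes on those arrays (6.11 and 6.09), so the change between the skins may not be exact. Without tumor 1, which left a single tumor array, the log2 fold change between the lesions was -1.69. Leaving out any 1 papilloma array ended the call between the lesions (adjusted p between 0.0544 and 0.0885), where 0.0948 to 0.319% of all genes were called lower. The same removals ended the call between the skins, where 0.0144 to 0.0287% of all genes were called lower. These losses thus say little of Il6 itself.

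When papilloma skin 1 and tumor 1 were left out, 4 of the 24 induced genes rose in papilloma, against 1.56% of all genes, with Cxcl3 at 2.52 (adjusted p = 0.0165), Ccl4 at 2.12 (adjusted p = 0.0101) and Csf3 at 1.75 (adjusted p = 0.0542). In tumor the counts were 7 higher and 1 lower, against 2.36% and 1.33% of all genes, with Cxcl5 at 3.99 (adjusted p = 0.0113), and Il6 was called neither between the lesions nor between the skins. From the scanner files with ComBat the counts were 10 in papilloma versus papilloma skin, against 6.28% of all genes, and 1 in tumor versus tumor skin, against 0.315%. Counts with 1 array left out are not given, since most of these fits left a single array in a group.

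**Figure D4:**
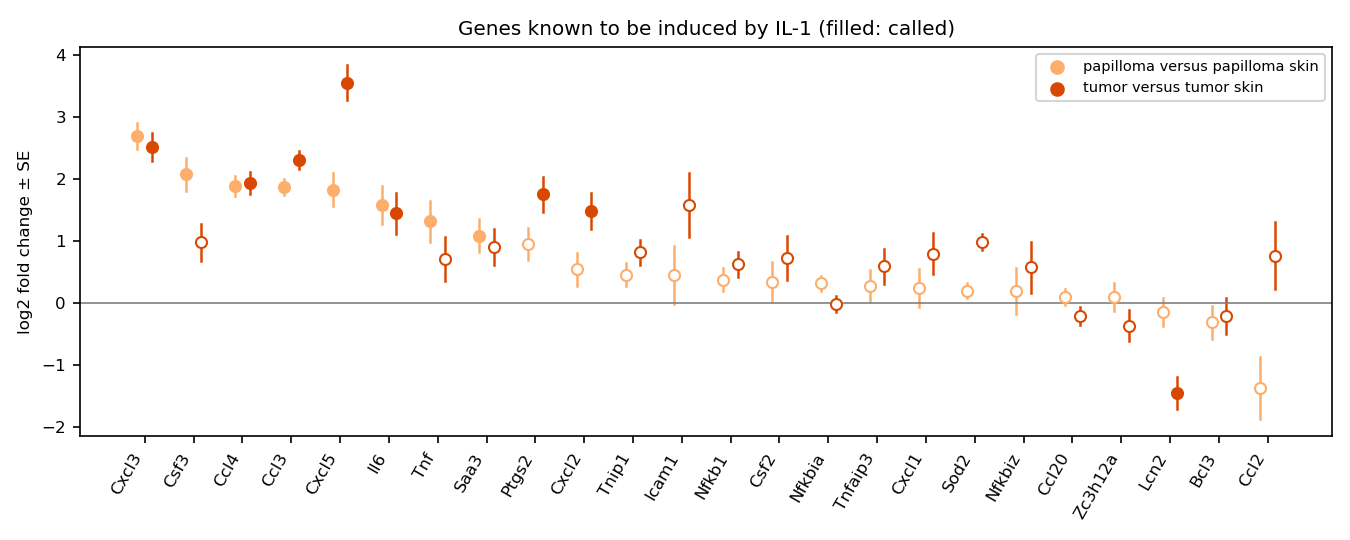
Log2 fold change with its standard error (limma) of the 24 genes known to be induced by IL-1 in each lesion against its skin, where filled circles passed the call rule. Cxcl3 and Cxcl5 had the largest values, at 2.69 in papilloma and 3.55 in tumor. The Cxcl5 change is not exact, since its skin values lay under the level of 6.

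The other IL-1 family ligands and receptors were a list of 11, of which 5 reached the level of 6. The IL-33 receptor gene Il1rl1 fell in papilloma against papilloma skin by 1.6 (adjusted p = 0.0267) and 0 rose, against 1.17% and 2.43% of all genes, and limma gave 4 of 11 an unadjusted p under 0.05, as it did 7571 of 34797 genes. Il1rl1 read 8.08 and 8.20 on papilloma skin 1 and 2 and 6.99, 6.14 and 6.50 on papilloma 1, 2 and 3. The call was lost without papilloma skin 1 (-1.66, adjusted p = 0.104), papilloma skin 2 (-1.54, 0.132), papilloma 2 (-1.4, 0.073) or papilloma 3 (-1.58, 0.0865). The ligand gene Il1f6 (IL-36α) rose by 1.68 in tumor against tumor skin (adjusted p = 0.0143) and 0 fell, against 2.75% and 1.61% of all genes. Il1f6 read 7.98 and 8.50 on tumor skin 1 and 2 and 9.83 and 10.01 on tumor 1 and 2. Its call was lost without tumor skin 1 (1.42, adjusted p = 0.0662), tumor 1 (1.77, 0.053) or tumor 2 (1.59, 0.0982). Neither gene was called without papilloma skin 1 and tumor 1 (adjusted p = 0.147 and 0.0631).

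Genes for IL-1 processing and release were a list of 17, of which 16 reached the level of 6. Of these, 3 fell in papilloma versus papilloma skin, against 1.17% of all genes, and 0 rose. These were the serine protease genes Ctsg (by 2.23, adjusted p = 0.0135) and Prtn3 (by 1.35, adjusted p = 0.0129) and the IL-1β-cleaving caspase gene Casp1 (by 1.05, adjusted p = 0.00462). On the papilloma arrays Ctsg read 6.23 to 6.67 and Prtn3 6.01 to 6.26, near the median of all probes (6.08 to 6.1). The changes of these 2 genes may therefore not be exact. Casp1 read 11.81 and 11.96 on papilloma skin 1 and 2 and 10.75, 10.95 and 10.80 on papilloma 1, 2 and 3, with no overlap. Without papilloma skin 1 the calls for Ctsg (-1.55, adjusted p = 0.0522) and Prtn3 (-0.99, adjusted p = 0.0655) were lost, and without papilloma skin 2 that for Casp1 (-0.98). In scanner-file values with ComBat 1 of the 17 was called higher and 0 lower, against 6.28% and 1.72% of all genes, with a list median of 0.09 against -0.3 in the value table, and Casp1 was at -0.12 (adjusted p = 0.811).

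The DNA sensor gene Aim2 rose by 1.44 in tumor versus tumor skin (adjusted p = 0.0119) and 0 of the 17 fell, against 2.75% and 1.61% of all genes, while limma gave 3 of 17 an unadjusted p under 0.05, as it did 9390 of 34797 genes. The Aim2 call was lost without tumor 2 (1.16, adjusted p = 0.084). After papilloma skin 1 and tumor 1 were left out, 1 of the 17 fell in papilloma and 1 rose in tumor, against 0.79% of all genes lower and 2.36% higher.

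Genes of IL-1 receptor signaling were a list of 18, all at the level of 6. The ubiquitin ligase gene Peli1 rose by 1.01 in papilloma over papilloma skin (adjusted p = 0.0228) and 0 fell, against 2.43% and 1.17% of all genes, with 9 of 18 and 7571 of 34797 genes at an unadjusted p under 0.05 in limma. The Peli1 call was lost without papilloma skin 1 (0.89, adjusted p = 0.125), papilloma skin 2 (1.14, 0.0712), papilloma 2 (0.91, 0.0693) or papilloma 3 (1.01, 0.0776), and 0 were called without papilloma skin 1 and tumor 1. Between tumor and tumor skin 0 of 18 were called, with 10 of 18 and 9390 of 34797 genes at an unadjusted p under 0.05 in limma. The genes of highest level were the adaptor gene Myd88 (-0.98, adjusted p = 0.0445, short of the 2-fold limit) and the kinase gene Irak2 (0.6, adjusted p = 0.0813). With these columns left out, 1 of 18 was called higher and 1 lower in tumor, against 2.36% and 1.33% of all genes. In scanner-file values with ComBat, 6 of 18 were called higher in papilloma and 0 in tumor, against 6.28% and 0.315% of all genes.

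For the lists of other family members, processing and signaling, limma called 0 genes of these 3 when tumor was set against papilloma or tumor skin against papilloma skin. At an unadjusted p under 0.05 these were 2 of 11, 3 of 17 and 4 of 18 in tumor versus papilloma (5299 of 34797 genes), and 4 of 11, 4 of 17 and 2 of 18 in tumor skin versus papilloma skin (7736 of 34797 genes). For the difference between the lesion effects limma called 0 genes of all 4 lists, against 0.0891% of all genes, and an unadjusted p under 0.05 was seen for 7 of the 24 induced genes and for 4 of 11, 4 of 17 and 2 of 18 (4911 of 34797 genes).

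Genes with a pattern most like that of 5 members were found by the root mean square difference of centered values over the 9 arrays, among 2906 genes. Nearest to Il1a (SD over arrays 1.78) were Ero1l (0.34), Tnfrsf26 (0.36) and Spp1 (0.36). Nearest to Il1rn (SD 1) were Mpp7 (0.2), Tgif1 (0.23) and Gpsm1 (0.24). Nearest to Il18rap (SD 0.55) were Sertad1 (0.12), TUG1 (0.14) and Neurl3 (0.14). Il1b (SD 0.12) and Il1r2 (SD 0.29) varied less than the SD of 0.5 that a searched gene needed, so the search could not find a like pattern for them.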

How the data were processed

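RNA of sorted neutrophils was measured in 9 samples on Agilent 1-color SurePrint G3 arrays. The deposited value table is in log2, normalized between arrays by the authors, whose methods describe quantile normalization with limma and ComBat for the chip, and which of these steps the table holds could not be told from its values. The scanner files the authors deposited hold intensity per spot, background-subtracted and detrended by Feature Extraction, per the file headers.

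Members and lists were chosen with earlier results of these data known. All 55681 non-control probes of the value table were fitted in limma 3.58.1 (R 4.3.3, with version 1.17.8 of data.table) on 4 groups without a slide term, with moderated variances and p-values adjusted by Benjamini-Hochberg over all probes. A lone array in a group was taken to vary like the other groups. For list genes the median of all probes sharing a name was fitted the same way over 34797 names. Confidence intervals are 95%. Tables were made with pandas 2.3.3 and numpy 2.4.6 and plots with matplotlib 3.10.9, under Python 3.11.15.

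Every member probe is given. From each of 4 gene lists up to 3 called genes per direction with the largest change are named, or the 2 of highest level where none was called. Genes of like pattern were the 3 nearest with a mean value of at least 6 and an SD of at least 0.5. A further 9 lists held cell type markers.

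In 14 alternatives the scanner files replaced the value table (quantile or 75th percentile scaling, normexp with offset 50, ComBat or a slide term, only arrays whose spike-in slope reached 0.9), or the value table was fitted with slide, replicate number, other filters on level or background, 75th percentile scaling, gene medians, an intensity trend, or without papilloma skin 1 and tumor 1. In 9 fits 1 array was left out. The fit was tested on simulated data. After ComBat, p-values leave uncounted the degrees of freedom spent on slides. No outlier test was run, since no group had 4 arrays.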

Additional observations from a re-analysis of the deposited data

How the results depend on the processing

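Over 1420 member fold changes under other settings, 74 changed sign and 0 of these were called values, while 54 lost and 11 gained a call (Il18rap in 3 settings, Il33 in 3, Il1rap probe 2 in 2, and Il1rap probe 1, Il1r2 and Il18 in 1 each). The signal of Il1r1 and Il33 near background limits both. Below, Il1rap probes are numbered as in the text, effects are lesion minus its skin, the effect difference is the tumor effect minus the papilloma effect, and the cause of each change was not tested.

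From scanner files with ComBat, member calls were 5 in papilloma versus papilloma skin, 1 in tumor versus tumor skin and 0 in tumor skin versus papilloma skin, against 7.19%, 0.221% and 0% of all probes. Signs turned for Il18bp in papilloma versus papilloma skin (1), tumor versus papilloma (-0.19) and the effect difference (-2.35), for Il18rap (1.47) and Il1rap probe 2 (1.23) in tumor skin versus papilloma skin, and for Il1rn in the effect difference (0.01). With 75th percentile scaling the calls were 8, 1 and 0, against 11.5%, 0.0671% and 0% of all probes. Signs turned for Il18bp (0.55, -0.18 and -1.63 in the same comparisons), for Il18rap (1.33) and Il1rap probe 2 (0.56) between skins, for Il1b in tumor versus papilloma (-0.76), tumor versus tumor skin (-0.8) and the effect difference (-2.01), and for Il18 in the effect difference (-0.37). With normexp the calls were 4, 3 and 0, against 7.84%, 1.31% and 0.00181% of all probes. Signs turned there for Il18bp (0.54, -0.07 and -1.62), Il18rap (1.26) and Il1rap probe 2 (0.27). With slide as a term the calls were 0, 0 and 0, as for all probes, and signs turned for Il18bp (0.97, -0.18 and -2.43), Il18rap (1.54) and Il1rap probe 2 (1.24). On arrays whose spike-in slope was full the calls were 0, 0 and 0, as for all probes. Between skins, signs turned there for Il18bp (-0.5), Il1b (-0.1), Il1rap probe 3 (-0.07) and Il33 (0.38). They also turned for Il18bp in tumor versus tumor skin (0.13), Il1rap probe 3 in papilloma versus papilloma skin (-0.27), Il18rap (0.08) and Il1a (0.04) in tumor versus papilloma, and Il18rap (0.93), Il1rap probe 2 (0.25) and Il1rn (0.89) in the effect difference.

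On the value table with slide as a term, 1 member was called in tumor versus tumor skin (0.375% of all probes) and 0 between skins (0%), and signs turned for Il18rap (0.25) and Il1rap probe 2 (0.08) between skins and for Il1a in the effect difference (-0.37). With the replicate block, 2 were called in tumor versus tumor skin (1.32% of all probes) and 0 between skins (0%). A crossed replicate block was added after seeing the data, because deviations of the skin arrays with equal replicate numbers did not go together (r = -0.139 across probes). For papilloma skin with papilloma r was 0.162 and 0.534, and for tumor skin with tumor 0.393. It was -0.959 and -0.738 for tumor skin with papilloma, -0.589 for papilloma skin with tumor, and -0.47 and -0.257 for papilloma with tumor. The crossed block also gave 0 members between skins, against 0.00359% of all probes. Testing only probes of a mean value of at least 6 gave 0 as well, against 0.0623% of the probes tested. With columns shifted to the same 75th percentile, signs turned for Il18rap between skins (0.01) and Il1r2 in tumor versus papilloma (0.01). Without papilloma skin 1 and tumor 1, 0 were called between skins, and signs turned for Il1rap probe 3 in papilloma versus papilloma skin (-0.1) and between skins (-0.33), and for Il1rap probe 2 (0.07) and Il1rn (0.03) in the effect difference.

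Leaving out 1 papilloma array at a time gave 3 to 4 members called in tumor versus tumor skin, against 3.31 to 3.92% of all probes. In papilloma versus papilloma skin these fits called 3 members (2.27 to 2.54% of all probes), and between skins 0 (0.0126 to 0.0162%). Leaving out any other array left a single array in its group, so only fold changes are given here. Over all 9 removals, signs turned within the following ranges. In tumor versus papilloma they were -0.39 to 0 for Il18rap, -0.23 to 0.18 for Il1r2, -0.49 to 0.14 for Il1rap probe 1, -0.32 to 0.07 for probe 2 and -0.34 to 0.75 for Il33. In tumor versus tumor skin they were -0.36 to 0.05 for Il1r2, -0.45 to 0.18 for Il1rap probe 1 and -0.31 to 0.18 for probe 3. In papilloma versus papilloma skin they were -0.1 to 1.06 for Il1rap probe 3 and -0.05 to 0.93 for Il33. Between skins they were -0.41 to 0.32 for Il18rap, -0.05 to 0.15 for Il1b, -0.38 to 0.27 for Il1rap probe 2 and -0.33 to 0.83 for probe 3. In the effect difference they were -0.12 to 0.73 for Il18bp, -0.53 to 0.19 for Il18rap, -0.17 to 0.43 for Il1a, -0.03 to 0.17 for Il1b, -0.4 to 0.26 for Il1rap probe 2, -1.13 to 0.04 for probe 3 and -0.57 to 0.11 for Il1rn.

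The number of all probes called depended on the settings too. In papilloma versus papilloma skin it was 1769, with 0 to 6324 over the scanner-file settings and 552 to 1917 over other value-table settings. In tumor versus tumor skin it was 2346, with 0 to 721 and 209 to 2660.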
